A study of Mus musculus with 16 samples.

Results

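The TGF-beta axis described here comprises 4 genes, taken by symbol: Tgfb3 (ENSMUSG00000021253), Smad3 (ENSMUSG00000032402), Itgae (ENSMUSG00000005947) and Socs3 (ENSMUSG00000053113). They are 4 of the 7679 gene names whose values could be recovered, out of 8552 names listed by the authors and 17850 rows of values in the deposited table. All of these names belong to genes that the authors list as lower in Sin3A-deficient than in Sin3A-sufficient Th17 cells. The 4 genes were chosen by their measured fold changes in that comparison, which is therefore given below as a description without a test. The cells were purified CD4 T cells of C57BL/6 J mice aged 2 months, from which poly(A) RNA was sequenced, and which carried Rosa26-CreERT2 (+/-), a Cre recombinase that tamoxifen activates and that is expressed from a locus active in most cell types, and the floxed Sin3a alleles Sin3AF/F. Sin3A is a scaffold protein that brings histone deacetylases to repressed genes.

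Deficient IL-7 cells had been kept for 6 days in IL7, a survival cytokine of T cells, with Tamoxifen. Sufficient IL-7 cells had been kept for the same 6 days in IL7 without Tamoxifen. Deficient Th17 cells and sufficient Th17 cells came from these culture types after 3 further days in conditions that polarize CD4 T cells towards Th17 cells, a helper lineage that produces interleukin-17. Each group held 4 libraries. The labels name them BASALTAM955, BASALTAM957, BASALTAM959 and BASALTAM960 (deficient IL-7), BASAL955 to BASAL960 (sufficient IL-7), D3TAM955 to D3TAM960 (deficient Th17) and D3955 to D3960 (sufficient Th17). Values by library are listed in that order throughout, and the 4 libraries whose names end alike are called a set, such as the BASAL957 set. All 4 groups carried the Cre and the floxed alleles, and Tamoxifen went together with the deletion in each comparison of deficient with sufficient cells, so their effects cannot be told apart. The BASAL959 set is labelled female and the other 3 sets male. The labels do not say that a set comes from a single mouse, nor that the 3 male sets come from different mice. The p-values therefore measure only the spread between these libraries, which may be technical in part.

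TGF-beta is made as a latent ligand, is released from its carrier proteins outside the cell and binds a receptor pair that phosphorylates SMAD transcription factors. In CD4 T cells it supports regulatory T cells, and together with interleukin-6, which acts through STAT3, it supports Th17 cells. Tgfb3 encodes the ligand TGF-beta3, which activated T cells make in Th17 cultures. Smad3 encodes a receptor-activated SMAD. Itgae encodes the integrin chain alphaE (CD103), which pairs with the beta7 chain on lymphocytes of epithelia and is a well-known TGF-beta target. Socs3 encodes an inhibitor of gp130 and STAT3 signalling that STAT3 itself induces.

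Promoter sequence from RefSeq (GRCm38.p6) was at hand for 2 of the 4 genes, Socs3 and Smad3. The 250 bases before each transcription start are shown because SMAD and STAT proteins act at such elements. Capitals mark every match to the letters searched on both strands, which were the STAT-type palindrome TTCNNNGAA, the SMAD box CAGAC, the GC box GGGCGG and the AP-1 site TGANTCA. The Socs3 window lies at chr11:117969367-117969616 and the Smad3 window at chr9:63757995-63758244, both on the minus strand.
Socs3: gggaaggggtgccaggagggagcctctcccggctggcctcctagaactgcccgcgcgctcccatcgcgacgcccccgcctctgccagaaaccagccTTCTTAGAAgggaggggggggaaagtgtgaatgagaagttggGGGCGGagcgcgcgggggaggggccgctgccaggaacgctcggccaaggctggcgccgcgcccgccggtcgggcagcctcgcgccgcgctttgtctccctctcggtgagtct
Smad3: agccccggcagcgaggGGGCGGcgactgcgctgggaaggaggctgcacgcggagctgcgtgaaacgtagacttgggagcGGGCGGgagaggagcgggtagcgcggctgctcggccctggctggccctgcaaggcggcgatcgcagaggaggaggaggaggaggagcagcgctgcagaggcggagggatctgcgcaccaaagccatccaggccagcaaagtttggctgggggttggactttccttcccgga

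The Socs3 window held 1 STAT-type palindrome, starting 154 bases before the start, and 1 GC box. The Smad3 window held 2 GC boxes and none of the other letters. Of 32851 promoter windows of this length, 7.02% held the palindrome, 42.2% the SMAD box, 32.7% the GC box and 6.75% the AP-1 letters, with no overlap between the matches shown. These matches are descriptions of the letters alone.

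Values are normalized counts, that is reads divided by the authors' size factor of the library, restored from digits that had lost their decimal points. The libraries held 19751556 to 28716012 restored reads. Sin3a, whose exons outside the floxed part are counted too, averaged 2211 ± 98.2 in deficient and 2524 ± 249 in sufficient IL-7 cells, and 1774 ± 49.8 in deficient and 2106 ± 181 in sufficient Th17 cells (SD, n = 4 each), so that its RNA level checks the labels only in part. Of 8 CD4 T cell markers, 5 were measured, and their summed normalized count was 57736 to 62716 in deficient and 61026 to 70559 in sufficient IL-7 cells, and 29046 to 32560 in deficient and 46038 to 50444 in sufficient Th17 cells. Named genes are lower in deficient Th17 cells by construction. The Th17 direction of this sum and of the marker values below was therefore fixed in advance. The CD8 chain Cd8b1 ran from 323 to 430 in deficient and from 331 to 534 in sufficient IL-7 cells. In Th17 cells Cd8b1 ran from 73.3 to 116 in deficient and from 150 to 175 in sufficient libraries, without overlap. Cd8a, the other marker of the CD8 list, was unsettled in IL-7 cells. It averaged 76.4 ± 33.8 in deficient and 203 ± 120 in sufficient Th17 cells, with overlapping groups. BASAL960, a library of sufficient IL-7 cells, stood apart in several of the genes below, and had the lowest Cd4 value of its group (9335, against 11993 to 14027 in the other 3). Differences without this library are given beside the genes below that passed the test in IL-7 cells, except the markers Il2ra, Ctla4 and Blk.

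In deficient Th17 cells almost no Tgfb3 RNA was measured, whereas Itgae was at 42.0%, Smad3 at 63.6% and Socs3 at 76.1% of the level of sufficient Th17 cells. Before polarization Itgae fell in deficient IL-7 cells, to 24.4% of the mean of sufficient IL-7 cells, and Tgfb3, Smad3 and Socs3 did not pass the test there. In these bulk samples, fewer cells of a type that expresses a gene and less RNA per cell cannot be told apart.

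**Figure D1:**
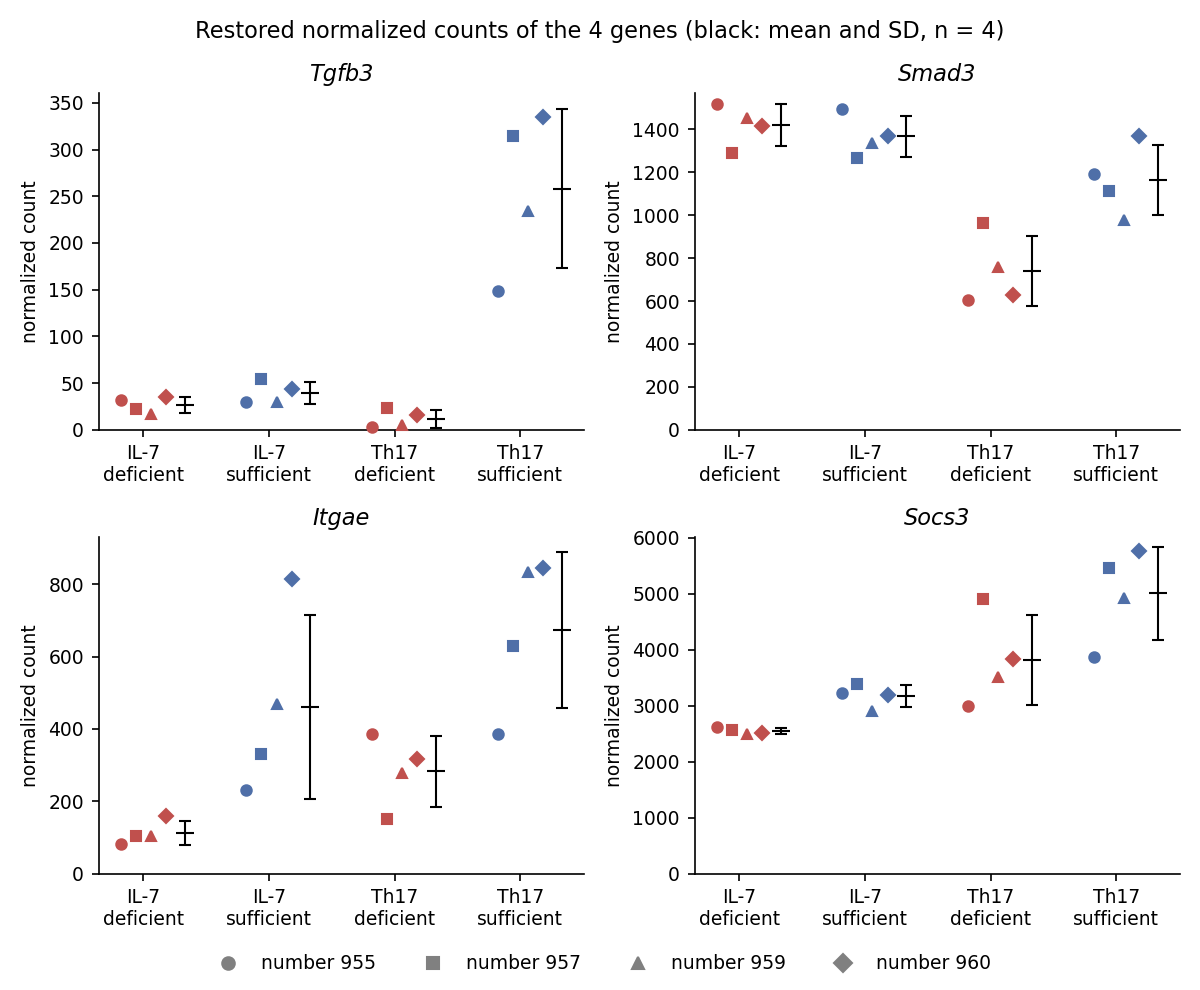
Normalized count (y axis, from 0) of Tgfb3, Smad3, Itgae and Socs3 in each of the 16 libraries, by group (x axis). Symbols mark the set by the number that ends the library names, and the black mark and bar give the mean and SD of 4 libraries. Tgfb3 lies between 2.64 and 23.3 in deficient Th17 cells and between 148 and 335 in sufficient Th17 cells, and Itgae does not overlap between deficient and sufficient IL-7 cells.

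The ligand gene came first in the size of its difference in Th17 cells. Tgfb3 had normalized counts of 2.64, 23.3, 4.79 and 16.4 in the deficient Th17 libraries, which are 3, 28, 5 and 19 reads. In the sufficient Th17 libraries it had 148, 314, 234 and 335, which are 150, 307, 269 and 297 reads. The groups did not overlap, and the lowest sufficient library stood far above the highest deficient one. The means were 11.8 ± 9.78 in deficient and 258 ± 85.1 in sufficient Th17 cells (SD, n = 4 each), so that deficient cells held 4.57% of the sufficient level. On the log2(normalized count + 1) scale used for all fitted differences the gap was -4.67 (SE 0.47), and 1 of the 6348 named genes tested had a lower value. In the authors' deposited table the log2 fold change of Tgfb3 is -4.44 with a standard error of 0.515. The 2 deficient libraries with the fewest reads, D3TAM955 and D3TAM959, set much of the spread, since their values rest on 3 and 5 reads.

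In IL-7 cells Tgfb3 was low in both groups. It had 32.3, 22.0, 16.5 and 35.6 in the deficient libraries, and 30.1, 54.5, 30.3 and 44.0 in the sufficient libraries. The groups overlapped, and the difference of -0.58 (SE 0.47) did not pass limma's test (adjusted p = 0.573). The digits of the sufficient IL-7 library BASAL957 can be read as 70 reads or as 7, and the probability of the reading used for that group was 0.654. With 7 reads the difference would be 0.20 with an adjusted p of 0.904, so that the direction of Tgfb3 in IL-7 cells is not settled.

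Across polarization the mean of Tgfb3 was lower in deficient cells and higher in sufficient cells. In deficient cells the mean was 11.8 after polarization and 26.6 ± 8.88 before it (a log2 difference of -1.45, or -0.86 without the BASAL955 set), and in sufficient cells it was 258 after polarization and 39.7 ± 11.8 before it (a log2 difference of 2.64, or 3.42 with the other reading of BASAL957). Sufficient Th17 libraries were all above the sufficient IL-7 libraries, whereas the deficient Th17 and IL-7 libraries overlapped. These differences share libraries with the comparison that chose the gene and were not tested.

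The signal transducer Smad3 showed no difference before polarization that passed the test. It had 1519, 1288, 1450 and 1417 in deficient IL-7 libraries, and 1496, 1264, 1337 and 1369 in the sufficient ones. The values of the 2 groups interleave, with means of 1419 ± 97.0 in deficient and 1366 ± 96.7 in sufficient cells and a log2 difference of 0.05 (SE 0.13, limma adjusted p = 0.876). In Th17 cells the 4 deficient libraries had 606, 964, 757 and 630, and the 4 sufficient ones 1191, 1114, 976 and 1367.

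All deficient Th17 values of Smad3 lay below all sufficient ones, although the gap between D3TAM957 and D3959 was small. The means were 739 ± 164 in deficient and 1162 ± 163 in sufficient Th17 cells, that is 63.6% of the sufficient level and a log2 difference of -0.67. Of the 6348 named genes tested, 1938 had a lower value. In the authors' deposited table the log2 fold change of Smad3 is -0.65. Across polarization the log2 difference was -0.96 in deficient cells and -0.24 in sufficient cells, and the deficient Th17 libraries did not overlap the deficient IL-7 libraries.

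**Figure D2:**
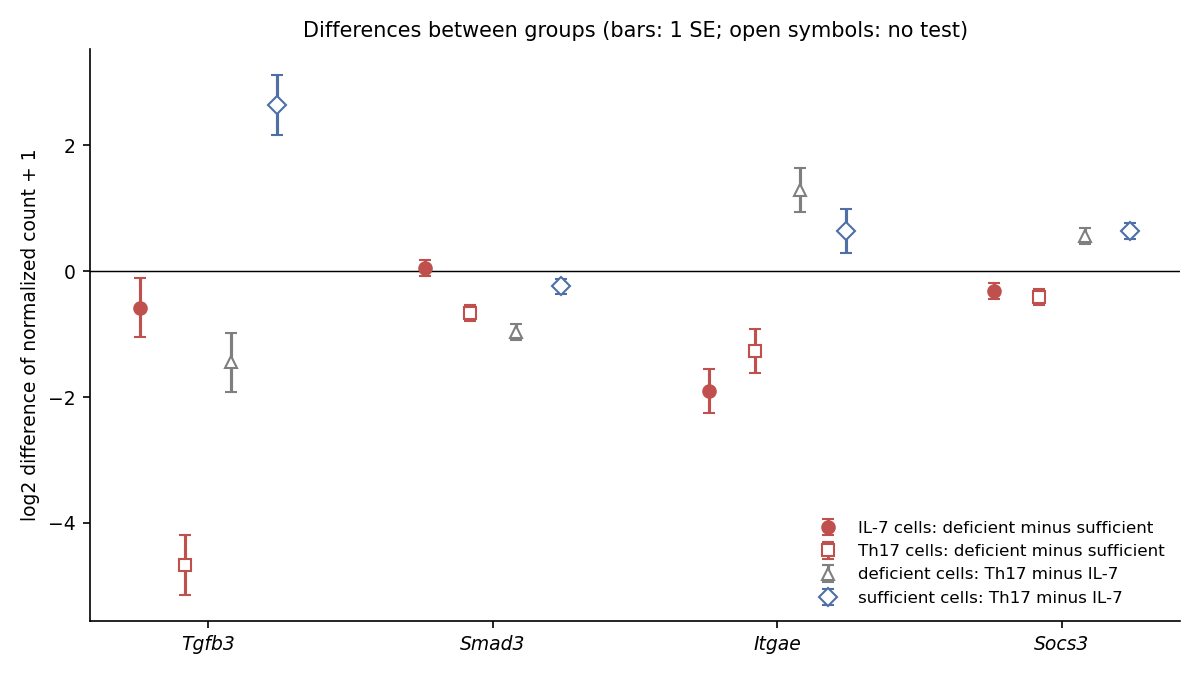
Fitted differences on the log2(normalized count + 1) scale (y axis) for the 4 genes (x axis), with bars of 1 SE. Filled circles give the tested comparison of deficient with sufficient IL-7 cells, and open symbols give differences without a test. Tgfb3 in Th17 cells (-4.67) and Itgae in IL-7 cells (-1.91) lie farthest below 0 among the comparisons of genotypes.

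Itgae was the gene of the 4 that passed the test over all 16 libraries before polarization. In IL-7 cells it had 82.7, 105, 104 and 159 in the deficient libraries, and 231, 330, 469 and 813 in the sufficient ones. The groups did not overlap, each deficient library was below the sufficient library of its set, and BASAL960 was the highest of the 8. The means were 113 ± 32.6 in deficient and 461 ± 254 in sufficient cells, a 4.10-fold difference. The log2 difference was -1.91 (SE 0.35, limma adjusted p = 0.00528 over 13395 rows), and 15 of 6348 named genes had a lower value. Of all tested rows 4.40% passed the same test in either direction, and of the named rows 3.58% passed it as lower, beside 1 of the 4 genes here. Without BASAL960 the difference was -1.58 (adjusted p = 0.0109). When the BASAL957 set was left out it was -1.995 (adjusted p = 0.0621), and without the BASAL959 set it was -1.82 (adjusted p = 0.0783), so that the call was lost without either set.

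In Th17 cells Itgae had 385, 152, 278 and 317 in the deficient libraries and 387, 629, 835 and 845 in the sufficient ones. The groups did not overlap, but D3TAM955 and D3955 nearly met. The means were 283 ± 97.9 in deficient and 674 ± 216 in sufficient Th17 cells, 42.0% of the sufficient level, with a log2 difference of -1.26. In the authors' deposited table it is -1.25. In the fit here 688 of the 6348 named genes tested had a lower value. Itgae was higher after polarization than before it in all 4 sets of each genotype, by a log2 difference of 1.28 in deficient and 0.64 in sufficient cells, with overlapping groups in both. The difference in sufficient cells was 0.36 without BASAL955 and 0.96 without BASAL960. Whether the effect of the deletion on Itgae differs between IL-7 and Th17 cells was not tested.

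Several genes best known from other lymphocytes also had lower mean values in deficient IL-7 cells. Whether their RNA came from such cells was not tested. Among the named genes, a segment of the T cell receptor gamma locus, Tcrg-V4, was the third most like Itgae across the 16 libraries. Of the 9 receptor gamma and delta segments joined to a row, 4 were settled (Tcrg-V4, Tcrg-C1, Tcrg-C3 and Tcrg-C4), and they were summed after their values had been seen. The sum was 272, 322, 401 and 1054 in deficient IL-7 libraries, and 709, 1035, 1185 and 1834 in the sufficient ones. It was 740, 520, 744 and 1270 in deficient and 725, 1036, 1476 and 1505 in sufficient Th17 libraries. As named genes, the segments are lower in deficient Th17 cells by construction. Each deficient IL-7 library held less than the sufficient library of its set, and in Th17 cells the BASAL955 set was the exception, with nearly equal sums. The genotypes overlapped in this sum at both stages. Itgae did not overlap, in Th17 cells by the narrow gap between D3TAM955 and D3955, which also had nearly equal sums.

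**Figure D3:**
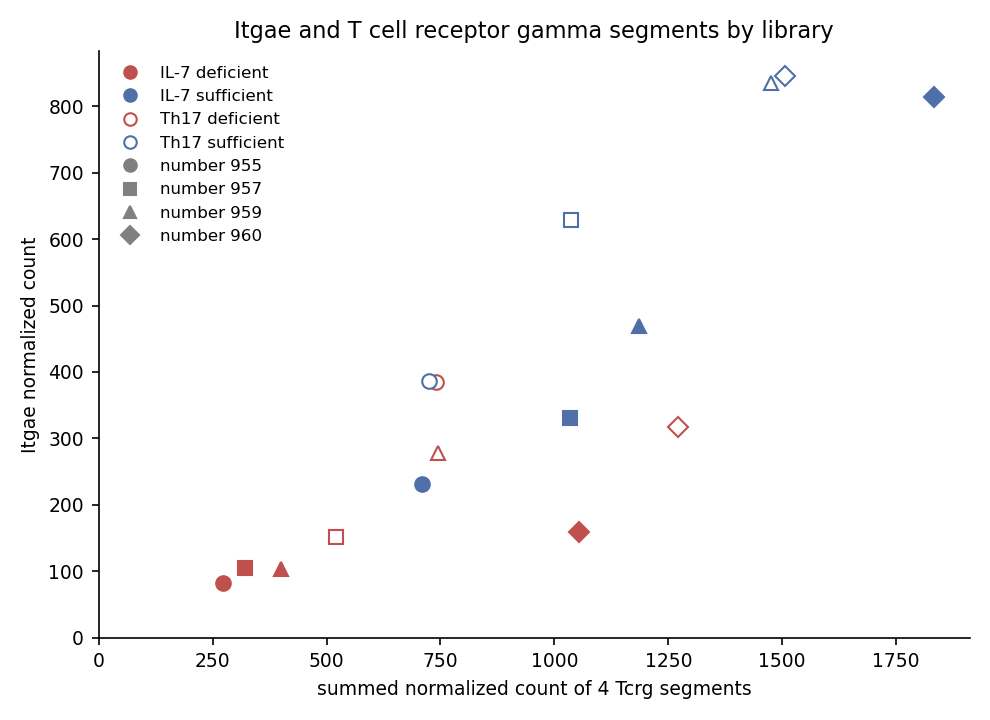
Itgae normalized count (y axis) against the summed normalized count of 4 T cell receptor gamma segments (x axis) in each library. Colours give the genotype, filled symbols IL-7 cells, open symbols Th17 cells and shapes the set. At like sums, Itgae is at 159 in BASALTAM960 (sum 1054) and 330 in BASAL957 (sum 1035), and at 385 in D3TAM955 (sum 740) and 387 in D3955 (sum 725).

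The summed level of 3 of the 6 regulatory T cell markers (Ctla4, Il2ra and Ikzf2), cells that also carry CD103, was 3223 to 5596 in deficient and 5792 to 13130 in sufficient IL-7 cells, and 30652 to 47919 in deficient and 60227 to 68685 in sufficient Th17 cells. As named genes, these markers are lower in deficient Th17 cells by construction. Il2ra made up most of the sum in IL-7 cells and passed there (2759 in deficient and 6361 in sufficient cells, limma adjusted p = 0.00882), as did Ctla4 (0.0429). Whether these calls hold without BASAL960 is not given here. Ikzf2 did not pass (973 in deficient and 1201 in sufficient cells, adjusted p = 0.411). In sufficient cells the Th17 minus IL-7 log2 difference was 3.04 for Il2ra, 4.42 for Ctla4 and -0.44 for Ikzf2. Foxp3, the defining factor of these cells, is not among the named genes. Of 7 B cell markers 2 were measured, Blk and Cd79a, with a sum of 114 to 181 in deficient and 283 to 890 in sufficient IL-7 cells. Blk made up most of that sum, with 35.6 to 106 in deficient and 202 to 746 in sufficient IL-7 cells. Blk passed there (limma adjusted p = 0.00805), and its difference without BASAL960 is not given here. Cd79a averaged 70.2 in deficient and 105 in sufficient IL-7 cells and did not pass (adjusted p = 0.22). Kit, the measured marker of the natural killer and innate lymphoid list, ran from 104 to 406 in deficient and from 221 to 640 in sufficient IL-7 cells. No marker of the myeloid list and none of the platelet and red cell list entered the test. The part of these cell types in the Itgae difference was not tested.

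The feedback inhibitor Socs3 had lower means in deficient cells at both stages, by less than the other genes had in Th17 cells. In IL-7 cells it had 2621, 2570, 2499 and 2505 in deficient libraries, and 3227, 3382, 2909 and 3194 in sufficient ones. The groups did not overlap, and the deficient libraries lay within a narrow range. The means were 2549 ± 58.0 in deficient and 3178 ± 197 in sufficient cells, 80.2% of the sufficient level. The log2 difference of -0.32 (SE 0.13) did not pass limma's test over all 16 libraries (adjusted p = 0.175). Fitted with limma on the 8 IL-7 libraries alone, where the spread of Socs3 was smaller, the same difference had an adjusted p of 0.0196. In that fit the difference of Itgae had an adjusted p of 0.0301.

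After polarization Socs3 had 2989, 4897, 3510 and 3839 in deficient and 3874, 5460, 4926 and 5770 in sufficient Th17 libraries. Each deficient library was below the sufficient library of its set, but the groups overlapped, because D3TAM957 was above D3955. The means were 3809 ± 805 in deficient and 5007 ± 832 in sufficient Th17 cells. The log2 difference was -0.40, and the median over the 6348 named genes tested was also -0.40. A lower value than that of Socs3 was found in 3134 of them. The authors' deposited table gives -0.39. Th17 libraries were all above IL-7 libraries of their genotype, by a log2 difference of 0.56 in deficient and 0.64 in sufficient cells.

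The genes most like each of the 4 over the 16 libraries, by Pearson's r of log2 values among the 6347 other named genes tested, are given as a description. The 16 points fall into the 4 groups, so that r reflects group means as well. Tgfb3 was most like Sdf4 (r = 0.96), Pvr (0.96) and Ncf1 (0.95), a subunit of the phagocyte NADPH oxidase. Ncf1 averaged 110 ± 41.7 in deficient and 1086 ± 227 in sufficient Th17 cells, and in IL-7 cells it fell in deficient cells (132 ± 6.33, against 259 ± 66.3 in sufficient cells, log2 difference -0.94, limma adjusted p = 0.027). That call was lost without BASAL960 (-0.78, adjusted p = 0.0784), without the BASAL957 set (0.228) and without the BASAL959 set (0.0936). Smad3 was most like B330016D10Rik (0.96), Tmem108 (0.95) and RP24-490B17.2 (0.95). Tmem108 had means of 184 in deficient and 185 in sufficient IL-7 cells, and of 11.6 in deficient and 131 in sufficient Th17 cells, with a wider range than Smad3.

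Itgae was most like Osbpl3 (0.95), Fes (0.94), a tyrosine kinase gene, and Tcrg-V4 (0.92). All 3 fell in deficient IL-7 cells, with log2 differences of -0.85, -1.41 and -1.68 and limma adjusted p of 0.0463, 0.0181 and 0.0426, although their likeness to Itgae was measured over the same libraries. Without BASAL960, the highest of its group in each of them, the differences were -0.66, -1.08 and -1.31 with adjusted p of 0.123, 0.0442 and 0.117. None of these calls held without the BASAL957 set (adjusted p of 0.323, 0.166 and 0.297) or without the BASAL959 set (0.242, 0.144 and 0.221), and that of Tcrg-V4 was also lost without the BASAL955 set (0.0762). Socs3 was most like Slamf1 (0.95), H2afy (0.95) and C920009B18Rik (0.94), of which none passed in IL-7 cells. Among themselves the 4 genes were less alike, with r from -0.26 between Smad3 and Socs3 to 0.64 between Itgae and Socs3.

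Around the 4 genes, 8 lists of TGF-beta, integrin, SOCS and gp130 pathway genes held 142 genes, of which 75 are listed by the authors and 56 were tested. Of these, 6 fell in deficient IL-7 cells and 0 rose by limma's test. The 6 are 10.7% of those tested, beside 4.28% of all named rows passing in either direction, 3.58% as lower and 0.709% as higher. Named rows lean to lower values in IL-7 cells too, with 227 passing as lower and 45 as higher. Of all tested rows 298 passed as lower and 292 as higher, so that few risen genes could be counted among named ones. With limma voom on restored reads 7 of the 56 passed, again all lower. The median IL-7 differences of the 8 lists lay between -0.65 and 0.15, beside -0.05 over all named rows. Because each list can only hold named genes, which are lower in deficient Th17 cells by construction, the lists are described for Th17 cells by values alone.

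**Figure D4:**
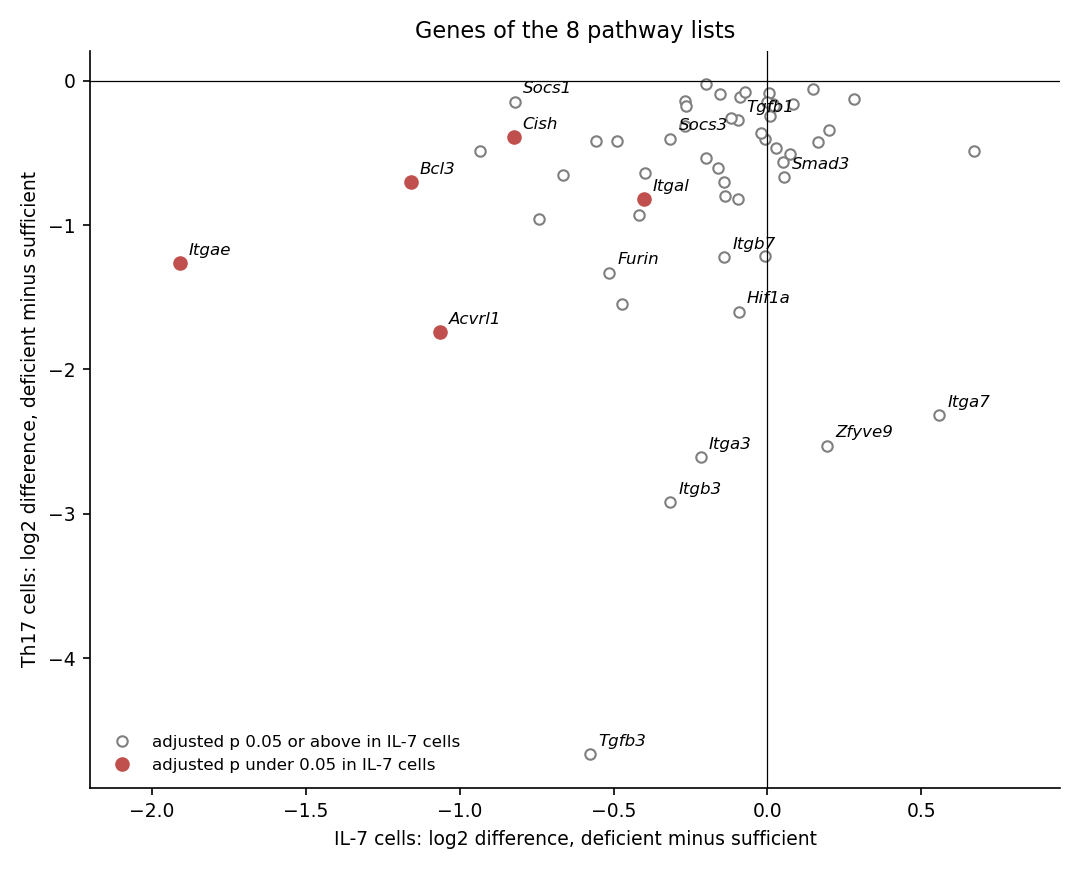
Each circle is 1 of 55 tested genes of the 8 pathway lists, with its log2 difference between deficient and sufficient cells in IL-7 (x axis) and in Th17 culture (y axis). Filled circles passed limma's test in IL-7 cells, which 5 of the genes drawn did, and Tgfb3 lies lowest on the y axis at -4.67.

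Among ligands and genes of ligand activation, 0 of 7 tested genes passed in IL-7 cells, where 2 had an unadjusted p under 0.05. The widest were Inhba, a subunit of activin, with a log2 difference of -0.93 (adjusted p = 0.13) at means of 4.86 in deficient and 9.59 in sufficient IL-7 cells, and Tgfb3. Tgfb1, the main TGF-beta gene of T cells, averaged 2403 ± 184 in deficient and 2567 ± 229 in sufficient IL-7 cells, and 5370 ± 327 in deficient and 6557 ± 1165 in sufficient Th17 cells. Its log2 difference in Th17 cells was -0.27, beside -4.67 for Tgfb3. Furin, the protease that cleaves the TGF-beta precursor, averaged 2805 ± 638 in deficient and 7290 ± 2520 in sufficient Th17 cells, and its IL-7 difference of -0.51 did not pass (adjusted p = 0.238). Ltbp3, a latent TGF-beta binding protein gene, had the widest positive IL-7 difference of the list (0.28, adjusted p = 0.469).

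Several list genes were joined to a row whose Th17 values were settled while the IL-7 values were not. Lrrc32, which encodes the surface carrier of latent TGF-beta (GARP), averaged 175 ± 68.9 in deficient and 547 ± 136 in sufficient Th17 cells. Ltbp4, a further latent TGF-beta binding protein gene, averaged 13.3 ± 6.06 in deficient and 60.6 ± 18.3 in sufficient Th17 cells. Both were without overlap. Tgfb2, the third ligand of the family, was barely measured, at 9.57 ± 2.93 in deficient and 10.0 ± 4.74 in sufficient Th17 cells, with a log2 difference of 0.00.

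**Figure D5:**
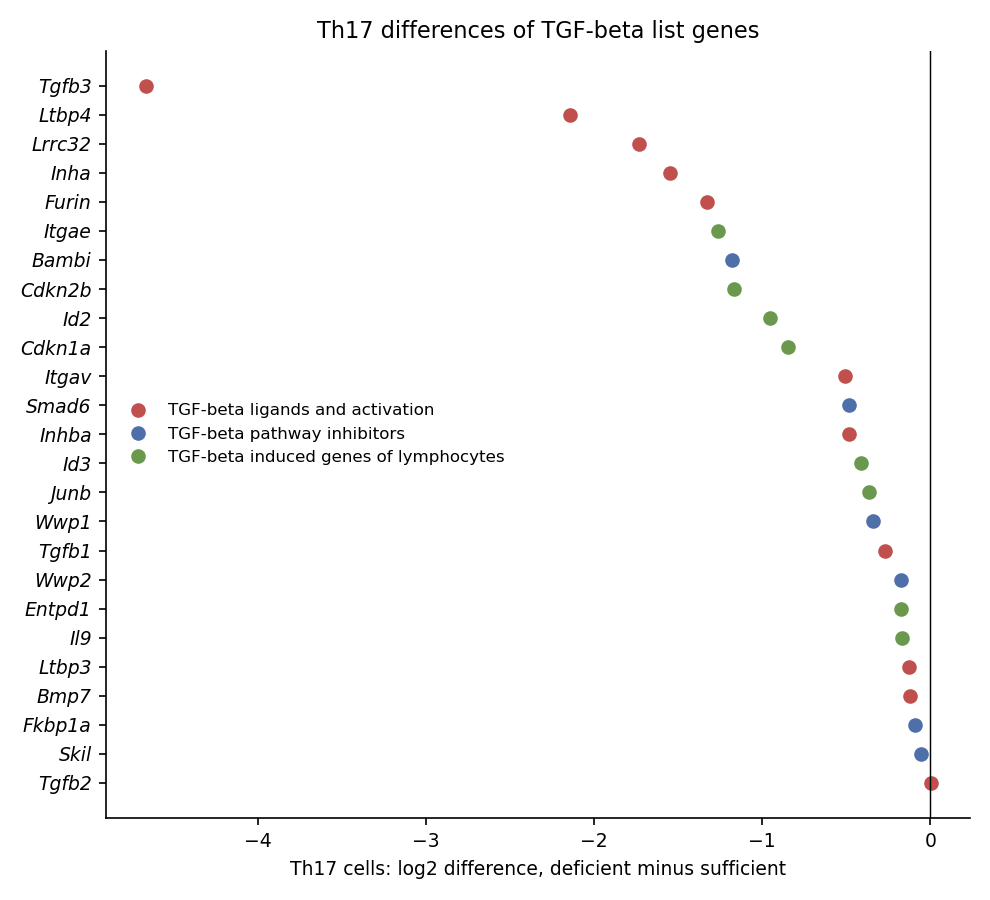
Log2 difference between deficient and sufficient Th17 cells (x axis) for 25 genes of the ligand, inhibitor and target lists with Th17 values (y axis, sorted). Colours give the list, and a gene of several lists is drawn under the first of them in the legend. Tgfb3 is at -4.67 and the next gene drawn, Ltbp4, at -2.14.

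Of 7 receptor genes tested, Acvrl1 fell in deficient IL-7 cells. It encodes ALK1, a type I receptor of the TGF-beta family. It averaged 217 ± 43.3 in deficient and 449 ± 51.2 in sufficient IL-7 cells (log2 difference -1.06, SE 0.20, limma adjusted p = 0.00653), and 628 ± 266 in deficient and 2001 ± 283 in sufficient Th17 cells. The IL-7 difference of Acvrl1 was -1.04 without BASAL960 (adjusted p = 0.014), and the call was lost without the BASAL957 set (-0.95, adjusted p = 0.132). Tgfbr2, the type II receptor gene for TGF-beta itself, averaged 5124 ± 315 in deficient and 5113 ± 375 in sufficient IL-7 cells, with a log2 difference of 0.00 (adjusted p = 0.998). In Th17 cells Tgfbr2 averaged 1061 ± 278 in deficient and 1108 ± 210 in sufficient cells, and it was lower after than before polarization in both genotypes. Tgfbr1 is not among the named genes and was not analysed here.

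None of the 12 tested SMAD and SMAD partner genes passed in IL-7 cells, where 2 had an unadjusted p under 0.05. The widest differences there were -0.66 for Runx2 (adjusted p = 0.189) and -0.20 for Runx3 (adjusted p = 0.264), genes of transcription factors that bind with SMADs. In Th17 cells the widest difference of the list was that of Zfyve9, which encodes the receptor anchor SARA that presents SMAD proteins to the receptor. Zfyve9 averaged 14.8 ± 7.70 in deficient and 84.0 ± 15.3 in sufficient Th17 cells (log2 difference -2.53), against 44.5 ± 8.30 in deficient and 39.6 ± 12.1 in sufficient IL-7 cells. Next came Tab2, which encodes an adaptor of the kinase TAK1, at -0.70 and Smad3 at -0.67, and the narrowest difference of the list was that of Cbfb, the Runx partner gene, at -0.11. Smad2, Smad4 and Smad7 are not among the named genes.

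Of 5 tested inhibitor genes 0 passed in IL-7 cells, where 1 had an unadjusted p under 0.05. The widest were Smad6 (adjusted p = 0.504), which with means of 1.39 in deficient and 0.405 in sufficient IL-7 cells is too low for a fold change, and Wwp1, a ubiquitin ligase gene (0.20, adjusted p = 0.122). In Th17 cells the widest difference among the tested inhibitors was that of Smad6 (-0.49, SE 0.48), at means of 19.1 in deficient and 22.8 in sufficient cells. Skil, which encodes the SMAD repressor SnoN, differed by -0.05. Bambi of the same list, whose IL-7 values were not settled, averaged 44.9 ± 14.6 in deficient and 112 ± 49.4 in sufficient Th17 cells (-1.18), with overlapping groups.

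Among the genes that TGF-beta induces or regulates in lymphocytes, Itgae fell in deficient IL-7 cells, as given above. Id2, an inhibitor of DNA binding, averaged 1724 in deficient and 3010 in sufficient IL-7 cells and did not pass (-0.74, adjusted p = 0.0649). Its means were 2656 in deficient and 5120 in sufficient Th17 cells, a log2 difference of -0.95. Id3, of the same family, averaged 573 in deficient and 843 in sufficient IL-7 cells (-0.56, adjusted p = 0.293), and Junb, an AP-1 subunit gene, differed by -0.02 (adjusted p = 0.955).

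Of 12 tested integrin chains, Itgae and Itgal fell in deficient IL-7 cells. Itgal encodes the alpha chain of LFA-1 and had 5884 to 6405 in deficient and 7257 to 9340 in sufficient IL-7 libraries (log2 difference -0.40, SE 0.08, limma adjusted p = 0.0087). It was -0.33 without BASAL960 (adjusted p = 0.0173), and the call was lost without the BASAL957 set (adjusted p = 0.159) or the BASAL959 set (0.0704). Itgb7, the partner chain of CD103, averaged 8452 ± 641 in deficient and 9323 ± 859 in sufficient IL-7 cells and did not pass (-0.14, adjusted p = 0.678). In Th17 cells Itgb7 averaged 2033 ± 483 in deficient and 4698 ± 819 in sufficient cells, a log2 difference of -1.22 beside the -1.26 of Itgae. The 2 chains of CD103 were lower by similar amounts in deficient Th17 cells, while in IL-7 cells the fall of Itgae stood beside a difference in Itgb7 that did not pass. Among the tested chains the widest Th17 differences were those of Itgb3 (57.1 ± 14.2 in deficient and 466 ± 182 in sufficient Th17 cells, -2.92), Itga3 (-2.61) and Itga7 (-2.32). Itgb5, whose IL-7 values were not settled, averaged 28.8 ± 7.24 in deficient and 147 ± 15.6 in sufficient Th17 cells (-2.34).

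Of 4 tested SOCS family genes, Cish fell in deficient IL-7 cells. It is a STAT5-induced feedback inhibitor and averaged 2198 ± 224 in deficient and 4019 ± 1334 in sufficient IL-7 cells (log2 difference -0.82, SE 0.17, limma adjusted p = 0.00945). Without BASAL960, at 5966 the highest of its group, the difference was -0.62 (adjusted p = 0.0107). The call was lost without the BASAL957 set (adjusted p = 0.158), without the BASAL959 set (0.0679) and in the fit of the 8 IL-7 libraries alone (0.0538). Socs1 had a like difference with more spread (1625 ± 191 in deficient and 3054 ± 1353 in sufficient IL-7 cells, -0.82, adjusted p = 0.0568, and -0.55 without BASAL960). Socs1 was lower after polarization than before it (942 ± 318 in deficient and 1009 ± 146 in sufficient Th17 cells), the reverse of the order in Socs3.

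Among 6 tested genes of gp130 and STAT3 signalling, Bcl3, a nuclear partner of NF-kappaB, fell in deficient IL-7 cells. It averaged 412 ± 17.5 in deficient and 956.7 ± 334 in sufficient IL-7 cells (log2 difference -1.16, SE 0.16, limma adjusted p = 0.000803). Without BASAL960, at 1455, the difference was -0.94 (adjusted p = 5e-05), and Bcl3 passed in all 32 alternative settings. Hif1a had the widest Th17 difference of the list, at 4885 in deficient and 14230 in sufficient Th17 cells (-1.60), with an IL-7 difference of -0.09 (adjusted p = 0.845). Stat3, whose IL-7 values were not settled, averaged 13986 ± 1356 in deficient and 16635 ± 2187 in sufficient Th17 cells.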

How the data were processed

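Poly(A) RNA of 16 libraries in 4 groups of 4 was analysed, grouped by the sample labels. Per the submitters' processing notes, reads were processed with Trim Galore 0.4.4, STAR 2.6, featureCounts, edgeR and DESeq2 on NCBIM37, with settings not given in the sources used here. Per the file headers, the authors deposited a mean, a log2 fold change, an error of that change, and a raw and an adjusted p-value for 8552 genes, all log2 fold changes being below 0, beside normalized counts per library in another row order and without decimal points. The values were restored as whole reads times the value of 1 read in that library (99.9932% of nonzero values were whole multiples, and 8.593% were raised by a power of 10 that the 4 libraries of a group made most likely). A row was settled where that probability was at least 0.95 in each group (0.99 where 3 or more libraries were raised), which held for 13571 of 17850 rows. Names were joined to rows by the authors' log2 fold change and its standard error, within 1e-06 and with the next row at least 20 times farther (7679 names, 89.79%). The join settles the Th17 values of a named row. Tgfb3 was kept although its IL-7 values were not settled.

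Differences were fitted with limma 3.58.1 in R 4.3.3 on log2(normalized count + 1) over all 16 libraries with a mean-variance trend, for rows with a mean of at least 5, and p-values were adjusted over 13395 rows by the method of Benjamini and Hochberg, with a limit of 0.05. A count model was not used, because the restored reads rest on estimated powers of 10. Restoring and fit were tested on simulated data. The members, the gene lists and the tests were chosen with earlier results of these data known. Named were the 4 genes, every list gene that passed in IL-7 cells or the 2 widest where none did, the widest Th17 differences, fixed partner genes and the 3 named genes most like each of the 4. Library numbers shared by groups were not taken as pairs. Alternatives were other pseudocounts, filters, scalings, limma settings, the replicate block and leaving out libraries or numbers, and 2 were added after the data were seen. Some list genes are counted but not reported here by name.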

Additional observations from a re-analysis of the deposited data

How the results depend on the processing

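The difference of Itgae between deficient and sufficient IL-7 cells kept its direction in all 32 alternatives, with log2 values from -2.19 to -1.58 and adjusted p from 0.00115 to 0.0783. It missed the threshold without the BASAL957 set (-1.995) and without the BASAL959 set (-1.82), settings that leave 12 libraries. Socs3 passed only in the fit of the 8 IL-7 libraries (-0.32, adjusted p = 0.0196), and otherwise ran from -0.36 to -0.29. Smad3 stayed between 0.02 and 0.10. Tgfb3 reversed at the other power of 10 in BASAL957 (0.20), where its polarization difference in sufficient cells moved to 3.42. The number of rows that passed in IL-7 cells was 590, with 2462 at an unadjusted p under 0.05, and ran from 31 to 705 when libraries were left out, the lowest without the BASAL957 set and then 115 without the BASAL959 set. It was 300 without BASALTAM955, 257 without BASALTAM957, 345 without BASALTAM959 and 332 without BASAL957. List genes that passed were 6, and ran from 1 to 8 when libraries were left out. With all rows at their most likely powers of 10, 312 rows were higher and 473 lower, against 292 and 298. The replicate block, in which the shared number is a term, gave Itgae -1.91 with an adjusted p of 0.00115, Socs3 0.0897 and 860 rows. The numbers were not taken as pairs, with 11 of 24 same-number correlations over 0.1. That choice does not show that libraries of a set were unrelated, and the main fit leaves any such relation out. The same-number correlations ran from 0.01 to 0.44, the others from -0.30 to 0.06, and a library correlated best with its own number in 40 of 48 cases. The cause of the changes was not tested. Depth limits Tgfb3 most, since 2 deficient Th17 libraries hold 3 and 5 reads.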
